A study of Mus musculus with 24 samples.

Results

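The genes of synaptic vesicles and of the SNARE machinery that fuses them were represented by 102 probes with 68 gene names, out of 55681 non-control probes with 36163 gene names on the array. Members were taken by gene name alone: the synaptotagmins (Syt), syntaxins (Stx), syntaxin-binding proteins (Stxbp), vesicle-associated membrane proteins (Vamp), Snap23, Snap25, Snap29 and Snap91, the synapsins (Syn), complexins (Cplx), Rab3 GTPases, SV2 proteins, Syp, Sypl and the RIM proteins (Rims). The synaptotagmins held 21 probes of 17 genes and the syntaxins 24 probes of 15 genes. The VAMP proteins held 8 probes of 7 genes, the syntaxin-binding proteins 8 of 5, the complexins 8 of 4, the Rab3 GTPases 7 of 4, the SNAP proteins 7 of 4, the synapsins 6 of 3, the RIM proteins 5 of 4, the SV2 proteins 5 of 3, and Syp with Sypl 3 of 2.

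A nerve terminal releases transmitter when a vesicle fuses with the plasma membrane. Fusion is driven by a SNARE complex, in which a vesicle protein such as Vamp2 zips together with syntaxin 1 and Snap25 on the plasma membrane. Complexins clamp and prime that complex, and calcium-binding synaptotagmins such as Syt1 trigger it. RIM proteins and Rab3 hold vesicles at the release site, synapsins tether the reserve pool, and SV2 proteins and synaptophysin are abundant in the vesicle membrane. Several members act elsewhere: Stx4a, Vamp8 and Snap23 serve secretion in many cell types, and Stx5a, Stx18 and Vamp4 serve traffic between intracellular compartments. Snap91 is a clathrin adaptor.

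The RNA came from bilateral hippocampi of C57BL/6 mice labelled male and killed on P9, with 5 pups, and so 5 arrays, per group. Controls (Con, 0 mg/kg morphine) received neither the drug nor the stress protocol. From P5 the MS2 and MS5 groups were injected with morphine at 2 or 5 mg/kg, and both were also separated from the dam and exposed to simulated apnea. No group received the stress or the morphine alone, so drug and stress cannot be told apart in a contrast with controls, and only MS5 versus MS2 compared doses under shared handling.

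The 15 arrays came from 2 slides that each held all 3 groups. Between 69.4% and 76.3% of spots were well above background on 14 arrays, and 64.1% on that of MS2 replicate 5. No spot was saturated. Of the 102 member probes, 95 were well above background on all 15 arrays. Cplx4 and Syt14 reached this on every control and MS5 array and on 4 of 5 MS2 arrays. Syt8, the second Syt15 probe and the second Stx8 probe reached it on some arrays but in no complete group. Stx19 and the Syn3 probe A_52_P352299 were not well above background on any array.

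Some arrays stood apart by markers of other tissue, and these values recur beside the members below. A list of 10 hippocampal neuron genes had a mean level (log2) of 12.22 to 12.72 on 14 arrays and 10.61 on MS2 replicate 4. That array carried the thalamic and hypothalamic transporter gene Slc17a6 at 14.87 and the habenular gene Pou4f1 at 10.68, where the control arrays had at most 12.17 and 6.84. The mean of the 5 medial habenula genes, Pou4f1 included, was 8.22 there and at most 7.49 on control arrays. The rise of Pou4f1 alone would give about that gap. A list of 16 choroid plexus genes, all well above background on all 15 arrays, averaged 11.42 to 12.36 on control arrays and 11.49 to 12.08 on MS2 arrays. In the MS5 group it ran from 8.93, on replicate 14, through 9.81, on replicate 9, to 11.84. The array of MS5 replicate 9 also carried Xist, which is transcribed from the inactive X chromosome, at 11.34, where the other 14 had at most 6.08.

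The first question was whether morphine at 5 mg/kg with stress changed these genes. In limma, 9 of the 102 member probes had an unadjusted p under 0.05 for MS5 versus Con, against 3.9% of all probes tested. The 7 lower probes, set against 2.43% of all probes, belonged to Syt15, Vamp8, Stx18, Stx4a and Sypl, the last 2 with both of their probes. This split depended on the arrays in the fit: it was 8 lower and 7 higher without MS2 replicate 4, which entered only through the shared spread, and 4 lower and 9 higher with MS2 replicates 4 and 5 and MS5 replicates 9 and 14 left out. Of the 2 higher probes, set against 1.47%, the one with the larger difference belonged to Syt6. Syt6 alone was also past the 1.5-fold threshold, which 0.228% of all probes passed. After Benjamini-Hochberg adjustment over all probes limma called 0 of them (0%), members included, and the smallest adjusted p of a member was 1.00. Differences were small in general: 95 of the 102 probes lay within 0.25 (log2) of the control mean. The median over members was 0.03, beside 0.00 over all probes, with 63 members higher and 39 lower in the MS5 group.

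**Figure D1:**
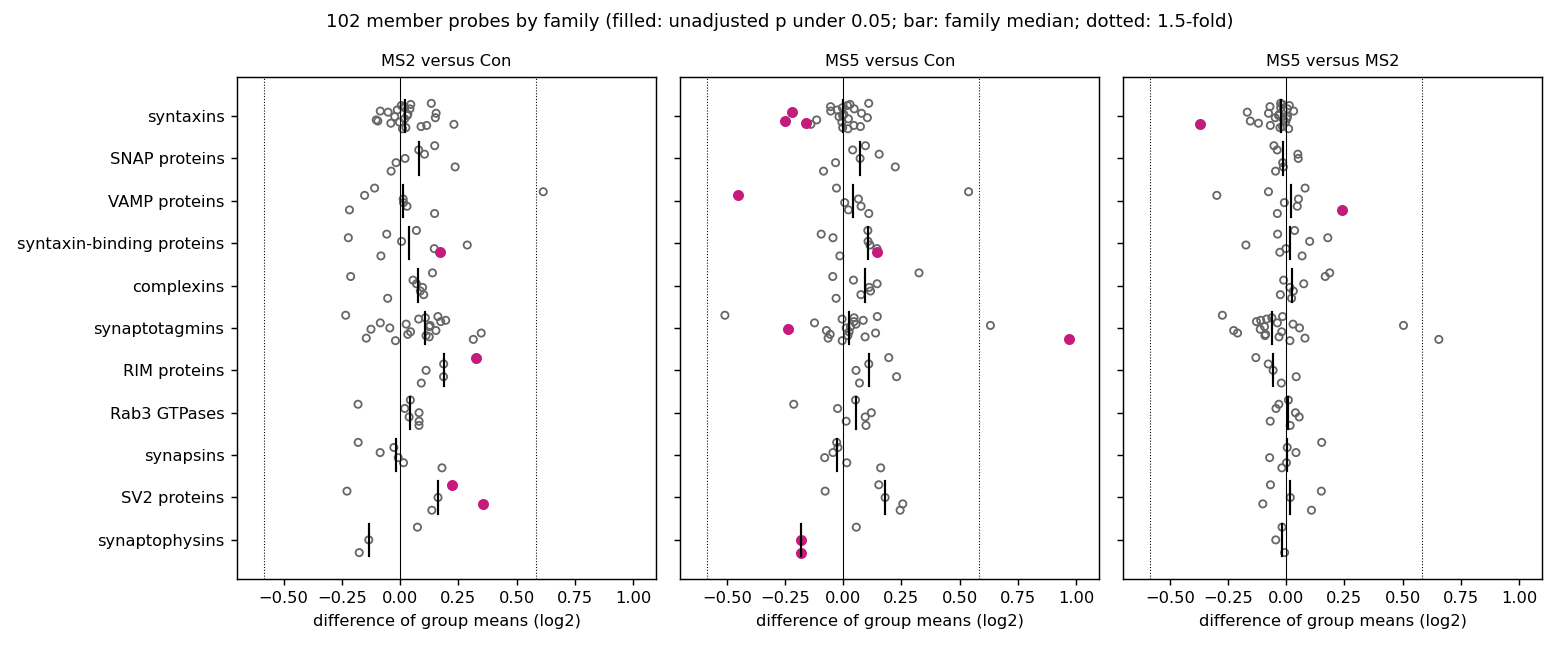
Difference of group means (log2, x axis) of all 102 member probes by family (rows) in the 3 contrasts. Open circles are probes with an unadjusted limma p of 0.05 or more, filled circles those under it, bars are family medians and dotted lines mark 1.5-fold. Most probes lie close to 0, and the filled circle farthest to the right in MS5 versus Con is Syt6 at 0.97.

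Syt6 belongs to the synaptotagmin family of membrane traffic proteins. Both of its probes match the transcript NM_018800 on the plus strand of chromosome 3, and their first 30 bases are shown because the 2 probes differed in call.

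Syt6 probe A_55_P2121240, chr3:103424769-103424828 (mm9): ctcaccctcacagtgatcaagtgtcgaaat
Syt6 probe A_55_P1965219, chr3:103439038-103439097 (mm9): tgtgtcttcccacccctgtcacagcctgga

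On the Syt6 probe A_55_P2121240 the control values (log2) were 8.26, 7.93, 8.23, 8.02 and 9.53 for replicates 15 to 19. In the MS2 group they were 8.53, 8.47, 9.21, 9.18 and 8.15 for replicates 1, 3, 4, 5 and 7. In the MS5 group they were 10.64, 8.06, 10.00, 8.44 and 9.67 for replicates 8, 9, 12, 13 and 14. The groups overlapped: MS5 replicates 8, 12 and 14 lay above every control, while 9 and 13 lay within the control range. Replicate 13, at 8.44, lay above every control but replicate 19. The mean was 8.39 ± 0.65 in controls, 8.71 ± 0.47 in MS2 and 9.36 ± 1.08 in MS5 (SD, n = 5). The MS5 mean was thus 0.97 (log2) above controls, 1.96-fold, with a standard error of 0.45 (limma unadjusted p = 0.0471, adjusted p = 1.00). The exact permutation p, two-sided, was 0.0873. The fit with slide as a block gave 0.90, no longer past the unadjusted threshold of 0.05, and within the slides the difference was 1.37 and 0.52. The second probe, A_55_P1965219, differed by 0.63 with an interval of -0.21 to 1.47 (95%, exact permutation p = 0.23).

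Both Syt6 probes were high on the same arrays, namely Con replicate 19, MS2 replicates 4 and 5 and MS5 replicates 8, 12 and 14. The thyrotropin-releasing hormone gene Trh was at 10.68 on Con replicate 19, against 7.23 to 8.32 on the other controls, and at 11.83 and 9.39 on MS2 replicates 4 and 5, against 7.65 to 7.86 on the rest of that group. In the MS5 group Trh did not follow the order of Syt6, with 11.30, 9.16 and 11.08 on replicates 8, 12 and 14 and 9.05 and 10.16 on replicates 9 and 13. The vasopressin gene Avp was at 11.99, 12.47 and 10.79 on MS5 replicates 8, 12 and 14, against 7.21 and 6.76 on replicates 9 and 13. It was at 10.58 and 8.73 on MS2 replicates 4 and 5, against at most 7.78 on the others, but at 7.64 on Con replicate 19, within the 6.32 to 8.18 of the other controls. In the list of 16 hypothalamic and thalamic genes, 13 were well above background on all arrays. Against controls, 13 were higher and 3 lower in MS5, with 4 higher at an unadjusted p under 0.05, where 1.47% of all probes were. The median difference from controls was 0.34 in MS5 and 0.49 in MS2, and 9 of the 16 were lower in MS5 than in MS2. Trh and Avp, both in the list, had already been reported by the study as risen in these data. The mean level of the list was 8.36 to 8.77 on control, 8.46 to 10.67 on MS2 and 8.51 to 9.64 on MS5 arrays. On MS5 replicate 13, which was not among the arrays high in Syt6, that mean was 8.90, above every control. The part of such tissue in the Syt6 difference was not tested. As in any bulk sample, more cells of a kind and more RNA per cell cannot be told apart.

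**Figure D2:**
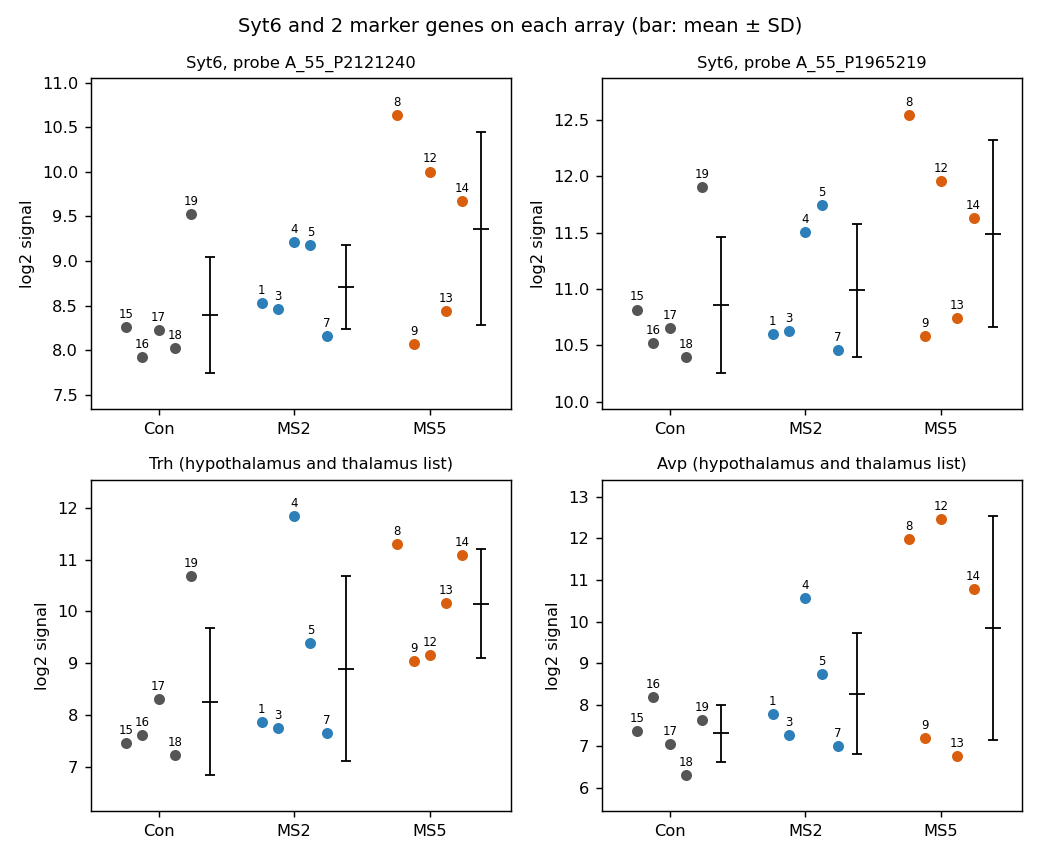
Level (log2 signal, y axis) of the 2 Syt6 probes and of Trh and Avp on each array, by group (x axis). Points are single arrays with their replicate number, and bars are the group mean ± SD (n = 5). Con replicate 19 and MS5 replicates 8, 12 and 14 are the highest arrays of their groups for both Syt6 probes, and the last 3 are also the highest for Avp, while for Trh MS5 replicate 13 lies above replicate 12.

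Of the members that were lower in the MS5 group, Syt15 had the smallest unadjusted p. Syt15 is a synaptotagmin that lacks the usual calcium-binding residues. Its control values were 8.35, 8.30, 8.40, 8.44 and 8.15 (log2), and its MS5 values 8.01, 8.12, 7.99, 8.28 and 8.08. All but MS5 replicate 13 lay below the lowest control. The difference was -0.24 ± 0.07 (SE, limma unadjusted p = 0.00274, adjusted p = 1.00; exact permutation p = 0.0159). It kept its direction and an unadjusted p under 0.05 in all 25 alternative fits, with p from 0.000484 to 0.0453. The second Syt15 probe, seen on some arrays only, differed by -0.07 (exact permutation p = 0.238).

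Vamp8, a SNARE protein of endosomes and secretory granules, differed most among the lower probes past the unadjusted threshold. The control values were 10.24, 10.71, 10.67, 10.40 and 10.41, and the MS5 values 10.26, 9.81, 10.42, 10.05 and 9.64. MS5 replicates 9, 13 and 14 lay below every control and replicates 8 and 12 within them. The difference was -0.45 ± 0.15 (SE, limma unadjusted p = 0.00829, adjusted p = 1.00; exact permutation p = 0.0556), a level 0.732 times that of controls. Replicates 9, 13 and 14 were also the 3 MS5 arrays lowest in choroid plexus markers. Of these 16 markers, 14 were lower in the MS5 group at an unadjusted p under 0.05, where 2.43% of all probes were. Many of them, such as Aqp1, Cldn2 and Kl, were already reported by the study as lower in these same data, so that count is not independent evidence. With MS5 replicates 9 and 14 left out, Vamp8 differed by -0.24 and did not pass the unadjusted threshold. Whether choroid plexus had a part in the difference was not tested further.

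Stx4a, a plasma-membrane syntaxin of regulated secretion, was lower by both probes. On A_55_P2156741 the control arrays read 14.12 to 14.37 and the MS5 arrays 14.00 to 14.11, and this was the only member probe whose MS5 and control arrays did not overlap, a pattern found at 0.828% of all probes. The difference was -0.16 ± 0.06 (limma unadjusted p = 0.0195, adjusted p = 1.00; exact permutation p = 0.00794, the smallest that 5 arrays against 5 allow). The second Stx4a probe differed by -0.22 (limma unadjusted p = 0.0197, exact permutation p = 0.0635). Without MS5 replicates 9 and 14 it differed by -0.11, not past the threshold, and it lost its call also without replicate 9 alone. Stx18, a SNARE of the endoplasmic reticulum, differed by -0.25 ± 0.09 on A_55_P2001198 (limma unadjusted p = 0.0187, exact permutation p = 0.0159), with 4 of 5 MS5 arrays below every control, while its brighter probe differed by -0.11 (exact permutation p = 0.159). Sypl, a synaptophysin relative found widely outside neurons and named here after its values were seen, differed by -0.18 on both probes (limma unadjusted p = 0.0351 and 0.0437, exact permutation p = 0.0635 and 0.103).

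**Figure D3:**
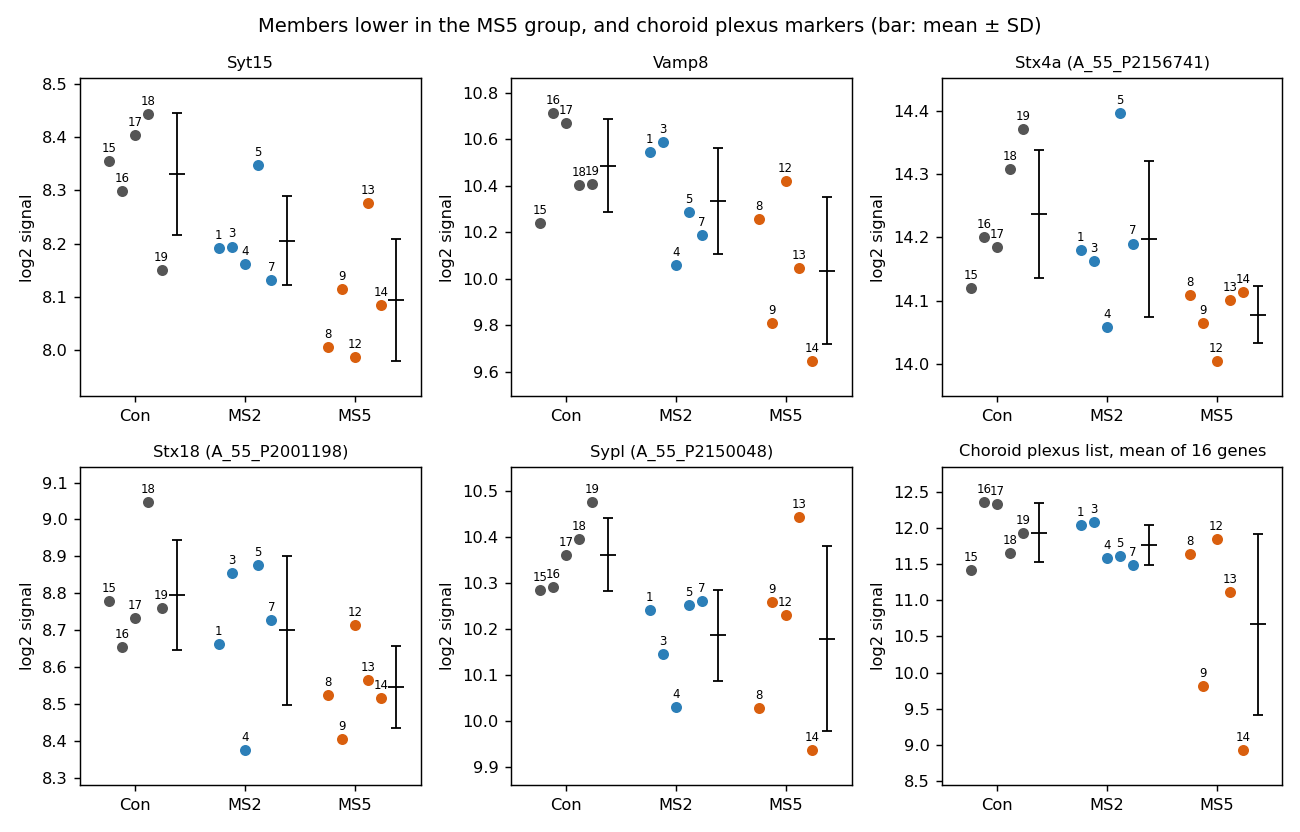
Level (log2 signal, y axis) of the 5 genes with lower probes in the MS5 group, and the mean of 16 choroid plexus genes, on each array by group (x axis). Points are single arrays with their replicate number, and bars are the group mean ± SD (n = 5). The MS5 arrays of the Stx4a probe drawn, A_55_P2156741, lie below all controls. MS5 replicates 9 and 14 are lowest for both Vamp8 and the choroid plexus genes.

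The second question was whether the lower dose with stress changed these genes. For MS2 versus Con, 4 member probes had an unadjusted p under 0.05 in limma, where 4.17% of all probes did. All 4 were higher, set against 2.05% of all probes, and 0 were lower, set against 2.12%. They included probes of Sv2c, Rims1 and Sv2a. None was past 1.5-fold, which 0.0233% of all probes passed, and limma called 0 probes (0%) at an adjusted p under 0.05. The median over members was 0.04, beside -0.00 over all probes, with 70 members higher and 32 lower.

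Sv2c, a vesicle glycoprotein of the SV2 family, had control values of 6.49, 6.44, 6.61, 6.37 and 6.81 on A_55_P2131168. The MS2 values were 6.75, 6.81, 7.23, 7.08 and 6.63, and 3 of 5 lay above the highest control. MS2 replicate 4 was the highest of all 15 arrays. The difference was 0.36 ± 0.13 (limma unadjusted p = 0.015, adjusted p = 0.970; exact permutation p = 0.0317). With MS2 replicates 4 and 5 and MS5 replicates 9 and 14 left out it was 0.19, and the mean of the 3 Sv2c probes differed by 0.22, both short of the unadjusted threshold. With no offset in the background correction the probe differed by 0.68, and with the processed signal minus the 75th percentile by 0.81, in both cases past 1.5-fold and the unadjusted threshold.

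Rims1, which organizes calcium channels and vesicles at the active zone, differed by 0.33 ± 0.13 on A_51_P366770 (limma unadjusted p = 0.0251, exact permutation p = 0.111), from 9.68 ± 0.25 in controls to 10.01 ± 0.29 in MS2. Its second probe differed by 0.19 (exact permutation p = 0.135). Sv2a, the widespread SV2 form and the binding site of levetiracetam, differed by 0.22 ± 0.09 (limma unadjusted p = 0.0297, exact permutation p = 0.0952), and MS2 replicate 4 was its highest array at 13.40. Without that array the differences were 0.28 for Rims1 and 0.14 for Sv2a, and neither passed the unadjusted threshold. For neither gene did the groups separate: 2 of 5 MS2 arrays lay above every control for Rims1, and 1 of 5 for Sv2a.

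In the other direction, the Sypl probe A_55_P2150048 was the 1 member probe whose MS2 arrays all lay apart from the controls, at 10.03 to 10.26 below 10.29 to 10.48. Of all probes, 0.702% separated in this way. Its difference was -0.18 ± 0.08 (SE, limma unadjusted p = 0.0514, exact permutation p = 0.00794).

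The third question was whether the doses differed under the same handling. For MS5 versus MS2, 2 member probes had an unadjusted p under 0.05 in limma, where 3.97% of all probes did. One was lower, set against 2.25%, and one higher, set against 1.72%. None was past 1.5-fold (0.129% of all probes), none had arrays that did not overlap (0.621%), and 0 probes (0%) passed the adjusted p. Stx3, a syntaxin of polarized membranes and of photoreceptor synapses, was lower in the MS5 group on A_55_P2171658, with values of 8.43, 8.39, 8.44, 8.66 and 8.64 against 8.58, 8.73, 9.48, 8.88 and 8.74 in MS2. The difference of -0.37 had an SE of 0.13 (p = 0.0113, exact permutation p = 0.0238), and was -0.14 on 1 slide and -0.69 on the other, which held MS2 replicate 4 at 9.48. Without that array it was -0.22 and still passed the unadjusted threshold. The other Stx3 probes differed by -0.02 and -0.08. Vamp4, a SNARE of the trans-Golgi network, was higher in the MS5 group by 0.24 ± 0.11 on 1 probe (limma unadjusted p = 0.0444, exact permutation p = 0.0714) and differed by 0.05 on the other (exact permutation p = 0.5).

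The core fusion machinery stayed close to control levels. For 20 genes of the machinery, named whatever their values, the brightest probe lay within 1.2-fold of controls for 19 in the MS5 group and for 17 in the MS2 group. None passed an unadjusted p under 0.05 in MS5, and Rims1 and Sv2a did in MS2. For most member probes the data bounded the change in processed signal. The 95% interval of the difference lay inside 1.5-fold either way for 92 of the 102 probes in MS5 versus Con. It did so for 90 in MS2 versus Con and 93 in MS5 versus MS2. The probes with wider intervals in MS5 versus Con were those of Cplx3, Syt10, Syt2, Syt9, Vamp1 and Vamp8, both of Syt6, and 1 each of Rab3d and Sv2c. The 102 include 2 probes well above background on no array and 3 that reached it on some arrays but in no complete group. On a dim probe the difference could depend on the offset of the background correction. The Sv2c probe A_55_P2131168 differed by 0.36 in MS2 versus Con, and by 0.68 with no offset. For such probes a narrow interval need not bound the change in RNA.

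Among the SNARE proteins of the synapse, Snap25 differed from controls by 0.15 in MS5, with an interval of -0.09 to 0.40. Its plasma-membrane partner Stx1a differed by 0.03 (-0.16 to 0.22). The vesicle SNARE Vamp2 had the narrowest interval of these, -0.04 to 0.17 around 0.07, with levels of 15.41 ± 0.09, 15.42 ± 0.08 and 15.47 ± 0.04 in Con, MS2 and MS5. The calcium sensor Syt1 differed by 0.09 (-0.12 to 0.31), and Syt7, the slower sensor, by 0.15 (-0.09 to 0.38), while the second Syt7 probe differed by -0.06. Syt4, an activity-regulated synaptotagmin, differed by -0.12 (-0.51 to 0.27).

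The proteins that hold and mark vesicles gave similarly narrow intervals in MS5 versus Con. The GTPase Rab3a differed by -0.02 (-0.20 to 0.16), synaptophysin (Syp) by 0.06 (-0.15 to 0.27) and Syn1, the main synapsin of terminals, by -0.08 (-0.31 to 0.15). Syn2 differed by -0.04 (-0.30 to 0.21) and Syn3 by 0.02 (-0.16 to 0.19), with the 3 Syn3 probes running from -0.02 to 0.16. Cplx1 differed by 0.04 (-0.20 to 0.29).

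By family, the RIM probes were all 5 above controls in MS5, with a median of 0.11, and all 5 in MS2, with a median of 0.19. The SV2 probes had 4 of 5 above controls in each group, with medians of 0.18 and 0.16. Both contrasts share the control arrays, and MS2 replicate 4 carried the highest value of Rims2 (10.20), Rims3 (8.17) and Rims4 (7.53). The synapsins had 4 of 6 below controls in each group, with medians of -0.03 and -0.02. The syntaxins, spread over many compartments, had 11 probes above and 13 below controls in MS5, with a median of -0.00.

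Complexin 2, which binds the assembled SNARE complex, had 5 probes, of which 4 were rich in repeats. The first 30 bases of 3 probes are shown because they show this contrast. GGAGAA is in capitals and occurs here only in A_55_P2040775, while the bases shown of A_55_P2067960 repeat agg.

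Cplx2 probe A_51_P485161, chr13:54485200-54485259 (mm9): tccccactttgtatgatgcaaatgctaaga
Cplx2 probe A_55_P2067960, chr13:108816800-108816859 (mm9): aggaggaggaggaggaggaggaggaggagg
Cplx2 probe A_55_P2040775, chr5:112438094-112438174 (mm9): aaggaggaggaggaggaGGAGAAggaagag

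All 3 lie on the plus strand, but the files place A_55_P2067960 far along chromosome 13 from A_51_P485161 and A_55_P2040775 on chromosome 5. The 4 repeat probes contained 8 to 15 different 6-letter words in their 60 bases, against a median of 55 over all probes, and were the 4 least varied of all member probes. They differed from controls by 0.08 to 0.15 in MS5. The first probe, at 53 words, differed by -0.04. On MS2 replicate 4 that probe had its lowest value, 15.78, against 16.70 to 17.04 on the other 14 arrays, while A_55_P2040775 was at 15.56 there, within its control range of 15.21 to 15.59.

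The array of MS2 replicate 4 carried the highest value of 27 of the 102 member probes and the lowest of 18, and 19 probes lay more than 0.5 (log2) from their own median there, against at most 6 on any other array. Vamp1, a synaptobrevin abundant in brainstem and motor neurons, was at 13.01 on this array and at 10.24, 10.44, 10.39 and 10.52 on the other MS2 arrays. Its controls lay between 9.91 and 10.69, and its MS5 values were 11.34, 10.00, 10.83, 11.05 and 11.00, of which 4 of 5 lay above every control. Vamp1 differed from controls by 0.61 in MS2 (exact permutation p = 0.294) and 0.54 in MS5 (exact permutation p = 0.0794). With MS2 replicate 4 left out of the fit, whose spread the groups share, the MS5 difference of 0.54 passed the unadjusted threshold.

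Syt2, a fast calcium sensor abundant in the hindbrain, was at 7.73 on that array and between 6.19 and 6.72 on the others. The members lowest there included Sv2b, another SV2 glycoprotein, at 11.89 against 12.66 to 13.15 elsewhere, and Syn2 at 15.23 against 15.62 to 15.99. Others that stood apart there, named after their values were seen, were Stxbp6 at 13.20 against at most 12.19, Syt13 at 15.38 against at most 14.76, Syt9 at 10.80 against at most 10.09 and Stxbp5 at 9.49 against at least 10.22. The diencephalic marker Slc17a6 and the habenular gene Pou4f1, given above, were also high on this array, and the part of such tissue was not tested.

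**Figure D4:**
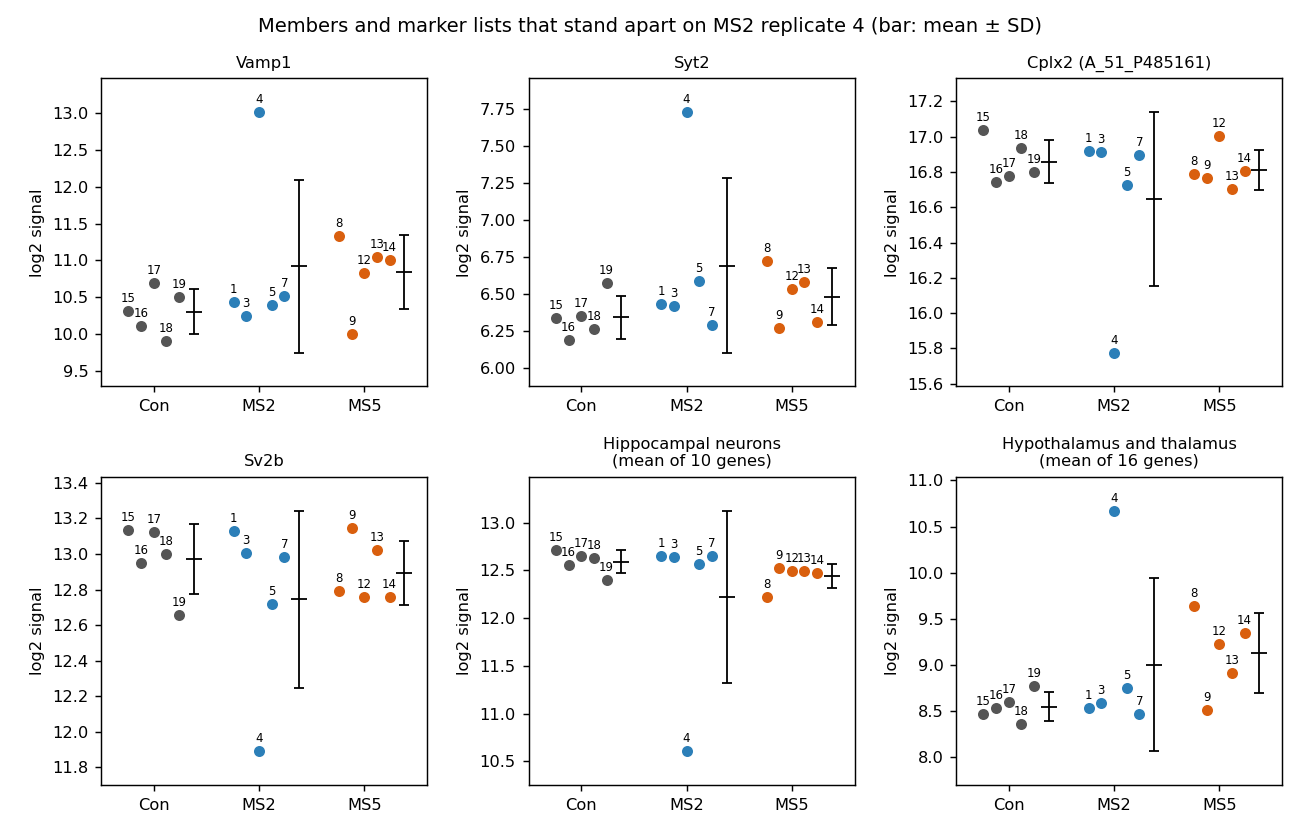
Level (log2 signal, y axis) of Vamp1, Syt2, Cplx2 and Sv2b and the mean levels of the hippocampal neuron and the hypothalamus and thalamus lists on each array, by group (x axis). Points are single arrays with their replicate number, and bars are the group mean ± SD (n = 5). MS2 replicate 4 is highest for Vamp1, Syt2 and the hypothalamus and thalamus list and lowest for Cplx2, Sv2b and the hippocampal neuron list.

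**Figure D5:**
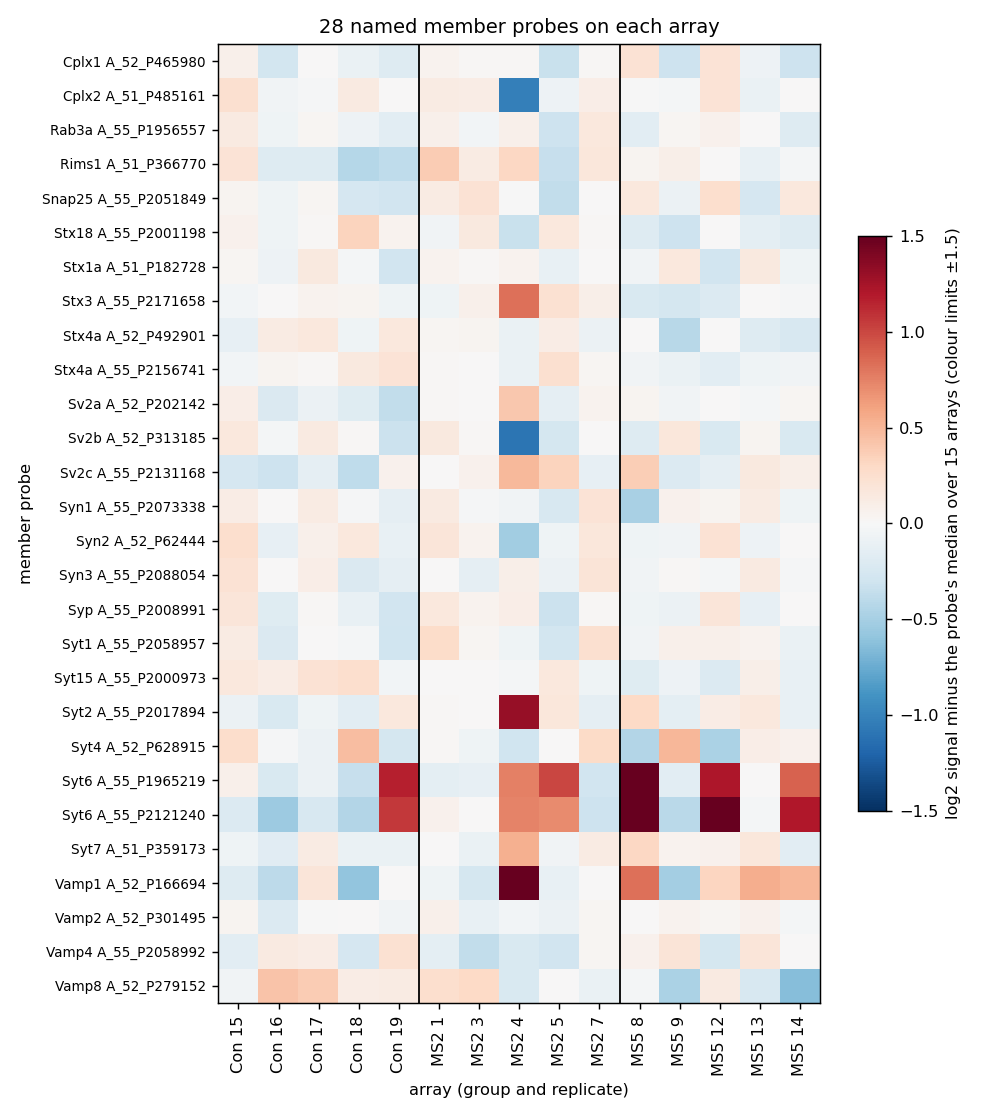
Level of 28 named member probes (rows) on each array (columns), as log2 signal minus the probe's median over 15 arrays, with red above and blue below and black lines between the groups. In the column of MS2 replicate 4 Vamp1 and Syt2 are high and Cplx2 and Sv2b low.

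Syt10, a synaptotagmin linked to insulin-like growth factor release and induced by activity, had the widest range of all members and varied within every group. It is named after its values were seen. Its controls were 8.46, 9.97, 8.86, 11.01 and 10.44, its MS2 values 7.97, 10.80, 10.78, 7.85 and 10.18, and its MS5 values 8.22, 9.50, 9.42, 9.25 and 9.82. The groups overlapped throughout, and MS5 differed from controls by -0.51 with an interval of -1.88 to 0.86.

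Other genes of the presynaptic terminal, 83 in all from lists of docking and priming, active zone, vesicle loading, endocytosis, other SNARE and synaptotagmin-like proteins, were read beside the members. For MS5 versus Con 1 of 83 passed an unadjusted p under 0.05, beside 3.9% of all probes, the synaptotagmin-like effector Sytl3 at -0.33 (limma unadjusted p = 0.00181, exact permutation p = 0.00794), with 48 higher and 35 lower and a median of 0.01. For MS2 versus Con 1 passed, beside 4.17% of all probes, the clathrin adaptor subunit Ap2b1 at 0.26 (limma unadjusted p = 0.0273, exact permutation p = 0.0238), with a median of 0.01. For MS5 versus MS2 Sytl3 alone passed, beside 3.97% of all probes, at -0.24 (limma unadjusted p = 0.0143, exact permutation p = 0.0238). The docking and priming, active zone, vesicle loading and other SNARE lists had 0 genes past that threshold in any contrast.

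Where a gene had several probes, they often differed. Among 25 genes with 59 probes, all probes of a gene had the same sign for 15 in MS5 versus Con, 16 in MS2 versus Con and 19 in MS5 versus MS2. Stx4a and Sypl were the genes with every probe past the unadjusted threshold, both in MS5 versus Con. The probes A_55_P2095854 and A_55_P2182222 of Rab3c shared 54 bases of the genome, and 1 pair of Cplx2 probes shared 28, so the probes of each pair are not separate measurements.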

How the data were processed

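The unit of the scanner files is intensity per spot, deposited as the Agilent Feature Extraction 10.7.1.1 software wrote it. For the series table of log2 values, the authors corrected background by normexp with an offset of 50 and then applied quantile normalization. The first spot of each probe gave these log2 values again to within 5e-09, and they were used as deposited. For the 1 member probe with more than 1 spot, averaging its spots moved its values by up to 0.23 (log2). With spots averaged, the member probes past the unadjusted threshold stayed at 9, 4 and 2 in MS5 versus Con, MS2 versus Con and MS5 versus MS2. Groups were compared with limma 3.58.1 (R 4.3.3) in 1 fit of 3 groups, adjusted p being Benjamini-Hochberg values over 55681 probes, and p-values measure the spread between pups. Single probes were also tested by two-sided exact permutation. The study's rule was over 1.5-fold with an unadjusted p under 0.05. Named probes were both of Syt6, those past that rule, the 5 smallest p in each direction per contrast, and the brightest probe of 20 core genes. The members, lists and rules were chosen with earlier results of these data known. Marker lists also covered medial habenula, oligodendrocytes, astrocytes, microglia and interneurons, with 0 genes past an unadjusted p under 0.05 in any contrast. Probe coordinates are mm9, from the files, and probe sequences come from the scanner files. The fit was tested on simulated data. Some member results are not reported here. The miRNA arrays were not used here.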

Additional observations from a re-analysis of the deposited data

Results flagged for a closer look

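Among 93 groups of 5 arrays (31 probes in 3 groups), 7 held an array whose gap to its neighbour exceeded Dixon's limit of 0.71 of the range, where chance flags about 1 in 20. Con replicate 19 was the highest control for both Syt6 probes, with ratios of 0.722 and 0.79. MS2 replicate 4 was highest for Vamp1 (ratio 0.9) and Syt2 (0.791) and lowest for Cplx2 (0.829). Cplx1 was lowest on MS2 replicate 5, the array with the fewest spots above background, with a ratio of 0.9, and Syn2 was highest on MS5 replicate 12, with a ratio of 0.757. By the limma test of MS5 against MS2, 2 member probes passed the unadjusted threshold, where 3.97% of all probes did. They were 1 probe of Stx3 (unadjusted p = 0.0113) and 1 of Vamp4 (unadjusted p = 0.0444), and neither had an adjusted p below 1.00. The Vamp4 probe lost its call in 14 of 25 alternatives, and the Stx3 probe in 1.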

How the results depend on the processing

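With 5 arrays a group, counts of members at an unadjusted p under 0.05 moved with single arrays, while no setting gave a member an adjusted p under 0.05. For MS5 versus Con the 9 probes became 5 with the processed signal minus the 75th percentile, beside 3.29% of all probes. With the probes of a gene averaged, 5 of 68 genes passed, beside 4.15% of all genes. Leaving out 1 array gave 5 to 15, with 5 without Con replicate 18 (3.14% of all probes) or MS5 replicate 14 (2.7%) and 15 without MS2 replicate 4. For MS2 versus Con the 4 became 12 with array weights, and 3 to 12 with 1 array left out (7 without Con replicate 15 or MS2 replicate 1, 12 without MS2 replicate 5, 8 without MS2 replicate 7). For MS5 versus MS2 the 2 became 9 with array weights, 1 with slide as a block, and 1 to 8 with 1 array left out (1 without Con replicate 17, MS2 replicate 1 or 3 or MS5 replicate 14, 4 without MS2 replicate 5 or MS5 replicate 12, 8 without MS2 replicate 4). The share of all probes past that threshold moved too: in MS5 versus Con from 3.9% to 5.92% without MS2 replicate 4, in MS2 versus Con from 4.17% to 7.49% with array weights and 6.58% without MS2 replicate 5, and in MS5 versus MS2 from 3.97% to 9.69% with array weights and 6.78% without MS2 replicate 4. That share was 5.65%, 4.67% and 4.41% in MS2 versus Con without Con replicate 15, MS2 replicate 1 and MS2 replicate 7. In MS5 versus MS2 it lay between 3.05% and 4.82% in the other settings named. The causes were not tested.

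The member medians (log2) ranged from 0.02 to 0.05, 0.03 to 0.06 and -0.03 to -0.00 in the 3 contrasts when 1 array was left out, and the processed signal gave 0.081 for MS2 versus Con. Chosen after seeing the data, leaving out MS5 replicates 9 and 14 gave 4 probes for MS5 versus Con and 1 for MS5 versus MS2, beside 2.32% and 2.27% of all probes. Leaving out MS2 replicates 4 and 5 as well gave 13, 6 and 8 probes, beside 5.36%, 6.13% and 5.21% of all probes, and turned the MS5 versus MS2 difference of Vamp1 from -0.08 to 0.67 and of Syt2 from -0.21 to 0.23, both then past the unadjusted threshold. Syt6 (A_55_P2121240) ranged from 0.65, without MS5 replicate 8, to 1.30 in MS5 versus Con, and lost its call in 15 of 25 alternatives. Of the 13 called differences of named probes, only that of Syt15 kept its call in all 25 alternatives, and none changed direction. No paired analysis was possible because the groups share no replicate numbers and the labels do not give litter. Treated pups were kept overnight with control littermates, so groups may share litters, which the p-values do not take into account. Few arrays limit precision, and 5 member probes had no group fully above background.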
